A study of Mus musculus with 8 samples.

Results

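Transcripts of the Notch pathway were examined in cultures of mouse calvarial osteoblasts, the bone-forming cells of the skullcap, after treatment with parathyroid hormone (PTH). The 10 genes followed here are the receptors Notch1, Notch2, Notch3 and Notch4, the ligands Jag1 and Jag2, and the transcriptional targets Hes1, Hey1, Hey2 and Heyl. They were chosen by name among the 47706 genes of the count table, and each name had 1 entry there. After 24 hours of PTH, Jag1 fell to less than its level in any vehicle-treated culture while the scarcer Jag2 rose, Notch1 rose while Notch2 and Notch3 fell, and Hes1 and Hey1 rose while Hey2 fell. Notch1 passed the test, but its PTH and vehicle cultures overlapped. Notch4 and Heyl did not pass it.

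Osteoblasts were isolated by collagenase digestion of the calvaria of newborn mice, taken to day 7 of differentiation, starved of serum and given PTH 1–34, the active N-terminal fragment of the hormone, or vehicle for 24 hours, with 4 cultures in each group. The methods of the study describe osteogenic medium and a micromolar dose of the hormone, whereas the labels of the cultures name adipogenic differentiation. The cultures carry the prefix Con in their names, which is not explained in the sources used here, and those sources do not tie a genotype, strain or sex to these cultures, though they give a C57BL/6 background for the transgenic mice of the study. No source says whether the cultures of a group came from separate preparations of cells, so the p-values measure the spread between these cultures, which may be technical. The comparison asks how PTH changed the transcripts of osteoblasts.

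Total counts ranged from 33605610 to 56090654 in the PTH group and from 41618108 to 46757836 in the vehicle group. Tnfsf11, which encodes RANKL and is a known target of the hormone, rose from 1.42 ± 0.365 to 128 ± 20.0 CPM (counts scaled to library size; mean ± SD, n = 4). The osteoblast markers had a median of 214 to 377 CPM in the 8 cultures and the adipocyte markers 4.51 to 7.08 CPM. The groups parted along the first principal component (62.8% of the variance). The lowest correlation within a group was 0.974, between PTH replicates 1 and 2. On the second component PTH replicates 1 to 4 were spread out, at 43.6, -42.0, -9.69 and 12.5. The vehicle cultures lay between -6.34 and 1.97. PTH replicate 1 had the most total counts, 56090654, and PTH replicate 2 the fewest, 33605610. PTH altered a large part of the transcriptome: of 16736 genes tested by edgeR's quasi-likelihood test, 45.8% passed a Benjamini-Hochberg adjusted p under 0.05, 23.3% as higher and 22.5% as lower with PTH. In 43.0% of genes the PTH and vehicle cultures did not overlap in CPM. These shares are the background for every count below.

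Notch receptors are single-pass proteins that are cut after they bind a Jagged or Delta ligand on a neighboring cell. The cut sets free their intracellular domain, which enters the nucleus, joins the DNA-binding protein RBPJ and turns on genes such as those of the HES and HEY families of transcriptional repressors. In bone, Notch signaling is known to restrain osteoblast differentiation, and Jag1 is a known ligand of the osteoblast lineage.

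RefSeq promoters, from 250 bases before the start of transcription to 50 bases after it (GRCm38.p6), were on hand for 7 of the 10 genes and not for Hes1, Hey1 and Heyl. They were searched on both strands for the core of the RBPJ site (GTGGGAA or GTGAGAA), for the cyclic AMP response element TGACGTCA and its shorter core TGACG, which is also counted within each full element, and for the E-box CACGTG, to which HEY proteins can bind. The Hey2 promoter held 2 RBPJ cores, one beginning 207 bases before the start on the reverse strand and the other beginning 4 bases before it on the forward strand and running across it. At least 1 such core was present in 10.6% of the 32851 mouse promoters and 2 or more in 0.709%. The Jag1 and Notch3 promoters each held 1 such core of the cyclic AMP element, 167 and 184 bases before the start, a sequence found in 20.8% of promoters. The full element (1.79% of promoters) and the E-box (7.15%) were in none of the 7 promoters, and those of Notch1, Notch2, Notch4 and Jag2 matched no motif. A match is a string of letters and not a bound site. The stretches with the matches of Hey2, Jag1 and Notch3 are shown 5′ to 3′ on the strand of the gene. The matched letters are in capitals. The stretches were chosen after the matches were seen. The Hey2 stretch, with RBPJ cores in capitals, covers chr10:30842774-30843033 on the minus strand and ends 10 bases after the start. The Jag1 stretch covers chr2:137116651-137116770 on the minus strand, and the Notch3 stretch covers chr17:32167021-32167140 on the minus strand. In both, the capitals CGTCA are the shorter core TGACG matched on the reverse strand.
Hey2: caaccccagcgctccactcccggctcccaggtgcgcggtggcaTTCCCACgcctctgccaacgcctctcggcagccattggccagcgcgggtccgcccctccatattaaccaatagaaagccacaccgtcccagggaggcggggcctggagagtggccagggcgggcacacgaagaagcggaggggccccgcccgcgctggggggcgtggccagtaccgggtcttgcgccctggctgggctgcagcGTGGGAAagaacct
Jag1: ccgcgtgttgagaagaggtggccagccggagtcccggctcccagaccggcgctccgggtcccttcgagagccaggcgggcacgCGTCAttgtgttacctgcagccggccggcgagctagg
Notch3: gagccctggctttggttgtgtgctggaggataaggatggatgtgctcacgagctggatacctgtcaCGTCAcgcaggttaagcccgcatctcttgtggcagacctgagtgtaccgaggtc

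Among the receptors, Notch2 and Notch3 fell, Notch1 rose and Notch4 was barely detected. Notch2 (chromosome 3 from 98013527 to 98150361), a receptor with well-known roles in bone remodeling, had 105, 95.7, 99.7 and 89.1 CPM in vehicle replicates 1 to 4 and 69.1, 74.6, 81.5 and 76.7 CPM in PTH replicates 1 to 4. All 4 PTH cultures were below all 4 vehicle cultures, and the mean moved from 97.4 ± 6.84 to 75.5 ± 5.14 CPM. The log2 fold change of Notch2 was -0.37 (standard error 0.0725, edgeR adjusted p = 0.0013). In the exact permutation test over the 70 assignments of 8 cultures the two-sided p was 0.0286, the smallest that 4 against 4 allow. In bulk RNA of this kind, fewer cells of a type and less RNA per cell cannot be told apart.

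Notch3 (chromosome 17 from 32120820 to 32166852), the receptor best known from mural cells of blood vessels, had 49.7, 53.8, 54.7 and 47.5 CPM with vehicle and 40.3, 39.1, 40.7 and 39.1 CPM with PTH. The groups did not overlap, and the PTH cultures lay close together (51.4 ± 3.39 and 39.8 ± 0.838 CPM). The log2 fold change was -0.37 (standard error 0.0659, edgeR adjusted p = 6.70e-04), the same to the second decimal as that of Notch2. Gm17276, a noncoding gene on the opposite strand that overlaps the Notch3 locus, was looked at after its values were seen. It rose from 16 to 20 counts per vehicle culture to 217 to 364 per PTH culture (log2 fold change 4.15, edgeR adjusted p = 1.67e-08), against 2229 to 2621 and 1301 to 2065 counts for Notch3. The strand setting of the counting is not given in the sources used here, so reads from exons that both genes cover cannot be told apart.

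Notch1 (chromosome 2 from 26457903 to 26516663), the receptor most studied in development and leukemia, moved the other way. It had 26.4, 28.0, 23.8 and 25.6 CPM with vehicle and 27.4, 37.7, 35.4 and 36.2 CPM with PTH. PTH replicate 1 lay inside the vehicle range and the other 3 lay well above it. The log2 fold change was 0.40 (standard error 0.101, edgeR adjusted p = 0.0068), while the exact permutation test on single values gave a two-sided p of 0.0571. With PTH replicate 1 left out, the log2 fold change of Notch1 was 0.49. The assembled locus of Notch1 also holds Mir6996, and that of Notch2 holds Gm42820, each with at most 13 counts per culture.

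Notch4 (chromosome 17 from 34564268 to 34588503), a receptor of endothelial cells, had 31, 44, 22 and 35 counts with vehicle and 2, 6, 29 and 39 counts with PTH. PTH replicates 1 and 2 were low and PTH replicates 3 and 4 were within the vehicle range. The log2 fold change of -0.59 had a standard error of 0.668 (edgeR adjusted p = 0.501). With these low counts and this scatter between PTH cultures, no difference was detectable. In the plot of CPM by culture, Notch4 is the receptor whose PTH cultures scatter most for their mean.

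**Figure D1:**
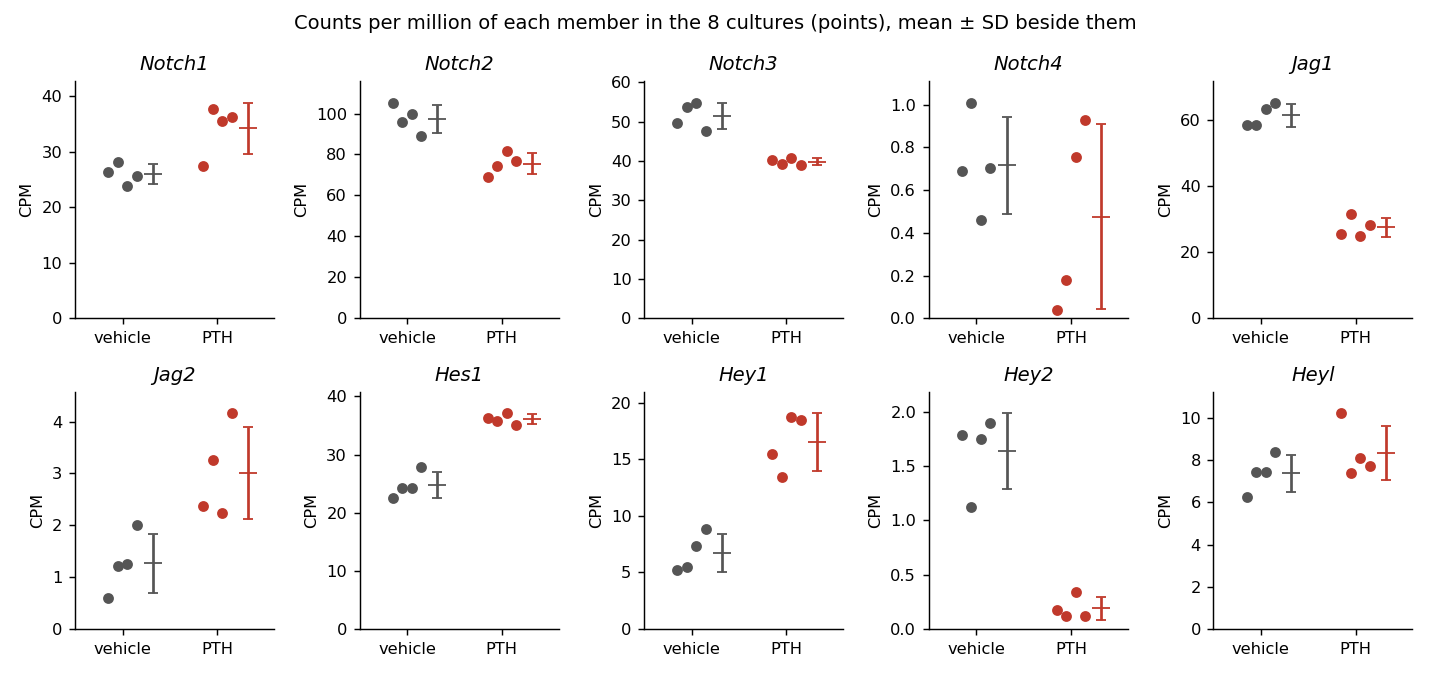
CPM (vertical axis, linear, from 0) of the 10 Notch genes in each vehicle (grey) and PTH (red) culture, with the mean and SD of 4 cultures beside the points. The groups are apart for Notch2, Notch3, Jag1, Jag2, Hes1, Hey1 and Hey2, and they overlap for Notch1, Notch4 and Heyl.

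Both Jagged ligands changed, in opposite directions. Jag1 (chromosome 2 from 137081456 to 137116644) had 58.5, 58.7, 63.3 and 65.4 CPM with vehicle and 25.7, 31.5, 25.1 and 28.2 CPM with PTH. Every PTH culture was under the lowest vehicle culture, and the mean level fell from 61.5 ± 3.42 to 27.6 ± 2.93 CPM, so that the vehicle mean was 2.23 times the PTH mean. The decrease in Jag1 came to a log2 fold change of -1.16 (edgeR adjusted p = 3.09e-07, standard error 0.0830), which lay between -1.22 and -1.12 with each culture left out in turn. Jag1 was the member with the most reads among those that changed by more than 1 on the log2 scale, with 2557 to 3244 counts per vehicle culture.

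Jag2 (chromosome 12 from 112907819 to 112929776) had 0.602, 1.22, 1.25 and 2.0 CPM with vehicle and 2.38, 3.25, 2.24 and 4.16 CPM with PTH. The lowest PTH culture was just above the highest vehicle culture. For Jag2 the log2 fold change was 1.24 (edgeR adjusted p = 0.00964, standard error 0.337) and rested on 27 to 99 counts per vehicle culture and 86 to 175 per PTH culture. Without vehicle replicate 1, the lowest of its group, the log2 fold change of Jag2 was 1.0, and without vehicle replicate 4, the highest, it was 1.55.

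The targets split in the same manner. Hes1 (chromosome 16 from 30064384 to 30067796), the best known direct target of Notch, had 22.6, 24.3, 24.2 and 27.9 CPM with vehicle and 36.3, 35.8, 37.1 and 35.2 CPM with PTH. The PTH cultures lay close together and all above the vehicle cultures. Hes1 rose by a log2 fold change of 0.54 (standard error 0.0758, edgeR adjusted p = 1.03e-04). Hey1 (chromosome 3 from 8663359 to 8667256), a repressor related to Hes1, had 5.18, 5.51, 7.32 and 8.85 CPM with vehicle and 15.4, 13.5, 18.7 and 18.5 CPM with PTH. Its groups did not overlap, and its mean with PTH was 2.46 times that with vehicle (log2 fold change 1.3, edgeR adjusted p = 7.16e-05, standard error 0.173).

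Hey2 (chromosome 10 from 30832359 to 30842801) had 80, 49, 84 and 94 counts with vehicle and 9, 4, 13 and 5 counts with PTH. Its promoter, the only one of a target that was on hand, held 2 RBPJ cores. In CPM the vehicle cultures had 1.79, 1.13, 1.75 and 1.89 and the PTH cultures 0.176, 0.120, 0.339 and 0.119. The highest PTH culture was well below the lowest vehicle culture. The vehicle mean was 8.70 times the PTH mean, and the log2 fold change of -3.10 (standard error 0.403, edgeR adjusted p = 5.86e-05) was the largest of the 10 in size, at a level where a few reads move it. Heyl (chromosome 4 from 123233556 to 123249875), the third HEY family member, had 6.25, 7.44, 7.43 and 8.41 CPM with vehicle and 10.2, 7.37, 8.12 and 7.73 CPM with PTH. Only PTH replicate 1 exceeded the vehicle range. Its log2 fold change was 0.18 (standard error 0.136, edgeR adjusted p = 0.302).

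Short transcripts as a group were higher with PTH. Genes with under 2000 exon bases had a median log2 fold change of 0.21, against -0.03 for those of 2000 to 4000 bases, and Hes1 and Hey1 have 2037 and 3265 exon bases. With an offset for transcript length in the model, chosen after the data were seen, the log2 fold change was 0.48 for Hes1 and 1.3 for Hey1, and both still passed the test.

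In all, 4 of the 10 genes were higher with PTH, 4 were lower and 2 were not called, beside 23.3% of all genes higher and 22.5% lower. The median of the 10 log2 fold changes was -0.09, and that of all genes tested was -0.0008. In 7 of the 10 the groups did not overlap, beside 43.0% of all genes. Groups of 4 that do not overlap always give the smallest two-sided p of the exact permutation test, 0.0286.

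**Figure D2:**
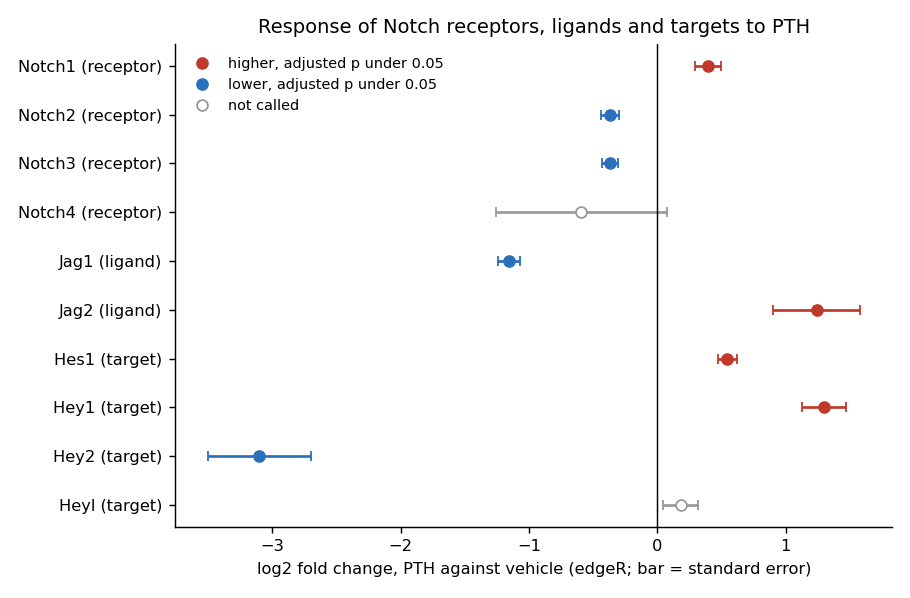
Log2 fold change of each Notch gene, PTH against vehicle (horizontal axis), with its standard error from edgeR, in red where higher, blue where lower and open grey where not called. Within each role at least 1 gene lies on either side of 0, from -3.10 for Hey2 to 1.3 for Hey1.

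Levels of different genes were compared as CPM per kilobase of exon, which takes out transcript length. In vehicle cultures the order from the top was Hes1 at 12.1 ± 1.09, Jag1 at 10.6 ± 0.587, Notch2 at 9.04 ± 0.634, Notch3 at 6.36 ± 0.419, Hey1 at 2.06 ± 0.523, Notch1 at 1.82 ± 0.124, Heyl at 1.44 ± 0.173, Hey2 at 0.357 ± 0.0758, Jag2 at 0.182 ± 0.0819 and Notch4 at 0.0889 ± 0.0280. The cultures of these neighbors overlapped for Hes1 and Jag1, for Hey1 and Notch1, for Hey2 and Jag2, and for Jag2 and Notch4. With PTH, Hes1 stood alone at 17.7 ± 0.397 and Notch2 followed at 7.00 ± 0.477. Below them Hey1 at 5.06 ± 0.775, Notch3 at 4.92 ± 0.104 and Jag1 at 4.74 ± 0.503 overlapped as neighbors. Notch1 at 2.40 ± 0.326 overlapped with Heyl at 1.63 ± 0.250, Jag2 stood at 0.432 ± 0.127, and Notch4 at 0.0590 ± 0.0536 overlapped with Hey2 at 0.0410 ± 0.0226. Jag1 thus went from the second place to the fifth and Hey1 from the fifth to the third. With the length of the longest transcript in place of all exons, the order was the same with vehicle, and with PTH Hey2 and Notch4 changed places. In proportion, the levels themselves moved most for Hey2, to 0.643 with vehicle and 0.0739 with PTH, and for Notch1, to 2.73 and 3.60.

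**Figure D3:**
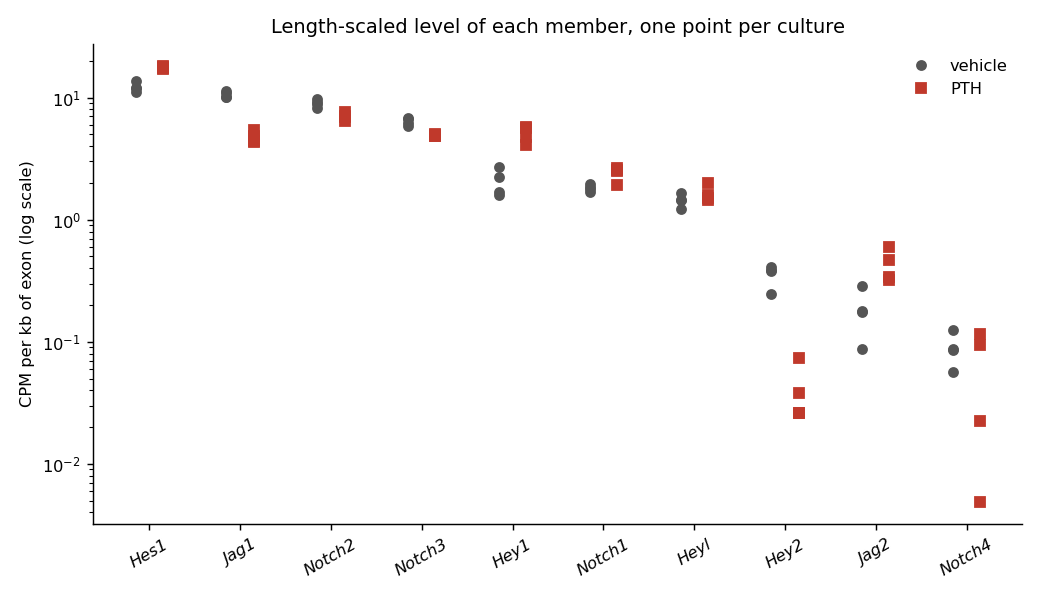
CPM per kilobase of exon (vertical axis, log scale) of the 10 genes in each vehicle (grey circles) and PTH (red squares) culture, in the order of the vehicle means. Hes1 is the most abundant in both groups, and Hey2 with PTH lies below 0.1 in every culture.

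The make-up of each class changed with its members. Summed per kilobase, the 4 receptors came to 17.3 ± 0.861 CPM with vehicle and 14.4 ± 0.780 with PTH. Notch2 was the main receptor transcript in all 8 cultures, at 52.2% ± 1.84 of the sum with vehicle and 48.6% ± 0.836 with PTH, and the share of Notch1 went from 10.6% ± 0.849 to 16.7% ± 1.68. The ratio of Notch1 to Notch2 was 0.181 to 0.222 in vehicle cultures and 0.30 to 0.383 in PTH cultures, while that of Notch3 to Notch2 overlapped between the groups (0.705 ± 0.0531 and 0.706 ± 0.0499). These shares and ratios rest on the length of all exons. With the longest transcript instead, Notch1 was at 2.73 CPM per kilobase with vehicle and 3.60 with PTH. Notch2 was then at 9.28 and 7.19, so the share of Notch1 and its ratio to Notch2 depend on the length used. The shares and ratios were not tested, since they are built from the values given above.

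The sum of both Jagged transcripts per kilobase was 10.7 ± 0.657 CPM with vehicle and 5.17 ± 0.590 with PTH. Jag1 made up almost all of it in each culture, but the share of Jag2 went from between 0.853% and 2.49% to between 6.97% and 11%. There were 68.4 ± 33.2 Jag1 transcripts for each of Jag2 with vehicle, on this scale, and 11.5 ± 2.37 with PTH. The sum of the 4 targets was 16.0 ± 1.77 CPM per kilobase with vehicle and 24.5 ± 0.989 with PTH. Hes1 held 76.0% ± 2.0 and 72.5% ± 2.39 of that sum, and these shares overlapped. The share of Hey1 went from 12.7% ± 1.93 to 20.6% ± 2.55, that of Heyl from 9.02% ± 0.390 to 6.68% ± 0.969, and that of Hey2 from 2.24% ± 0.471 to 0.166% ± 0.0848.

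**Figure D4:**
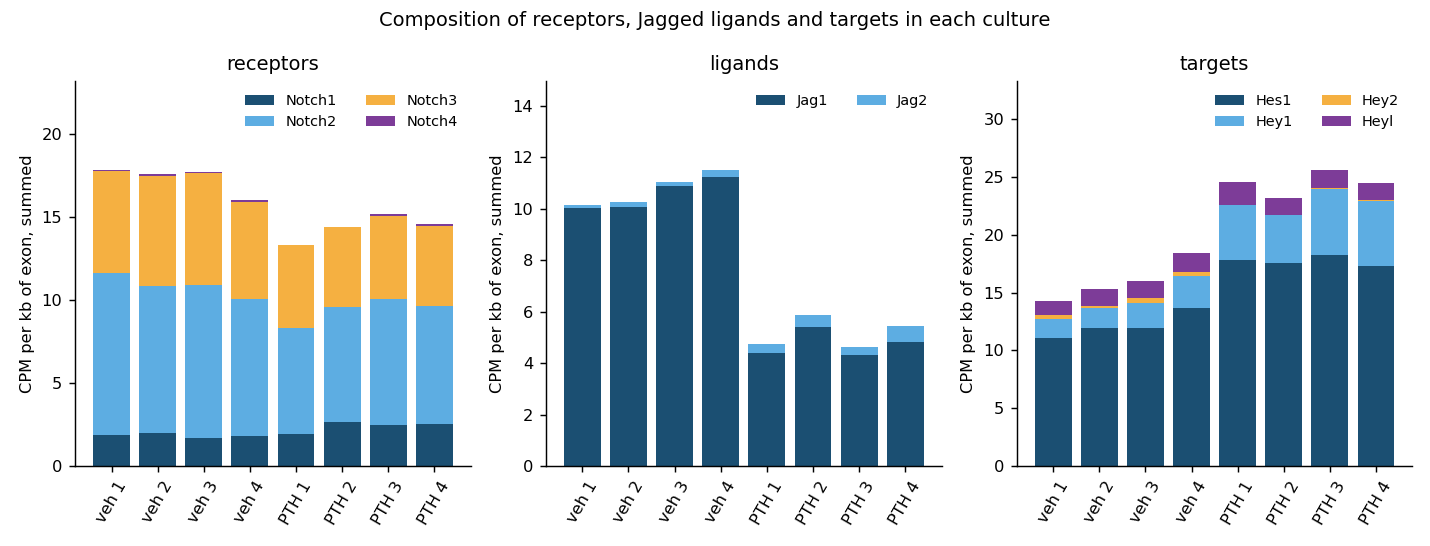
Stacked CPM per kilobase of exon (vertical axis, from 0) of the receptors, the Jagged ligands and the targets in each vehicle (veh) and PTH culture, numbered as in the labels. The receptor and ligand bars are lower in every PTH culture and the target bars higher, with Notch2, Jag1 and Hes1 the main transcripts of their class throughout.

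Of 102 other genes of the pathway, sorted by role, 94 had enough counts to be tested, 17 were higher and 32 lower with PTH, and 45 were not called. Their called share of 52.1% stands beside 45.8% of all genes, and their median log2 fold change was -0.07. Among the Delta-type ligands, Dll1 fell from between 42 and 59 counts per vehicle culture to between 9 and 14 per PTH culture (log2 fold change -1.94, standard error 0.331, edgeR adjusted p = 4.95e-04). Dll4 had 5, 13, 0 and 0 counts with vehicle and 8 to 21 with PTH (log2 fold change 1.87, edgeR adjusted p = 0.111). Its log2 fold change ranged from 1.44 to 3.27 over 16 alternative analyses, of which 1 passed the test. Dll3, with at most 9 counts in any culture, was not tested. Of 8 proteins reported to bind Notch without the Delta and Jagged type of domain, the adhesion protein gene Cntn1 rose (log2 fold change 0.89, edgeR adjusted p = 0.00322). Dlk2 (-1.38, adjusted p = 0.0484) and Nov (-0.28, adjusted p = 0.0333) were lower, but their groups overlapped and their edgeR calls held in 8 and 10 of 17 alternative analyses.

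Before it reaches the membrane, Notch is glycosylated on its EGF repeats. Of the 8 enzymes of that step, 1 rose and 3 fell, a called share of 50% beside 45.8% of all genes. The xylosyltransferase gene Gxylt1 rose from 36.5 ± 3.80 to 87.3 ± 21 CPM (log2 fold change 1.26, edgeR adjusted p = 2.37e-05), Lfng, which encodes Lunatic fringe, fell from 8.13 ± 1.08 to 5.54 ± 0.719 CPM (-0.55, adjusted p = 0.00645) and Eogt fell from 20.1 ± 0.811 to 13.9 ± 1.72 CPM (-0.53, adjusted p = 6.91e-04). Of 10 genes of the proteases that cut Notch, the γ-secretase gene Psen2 rose (log2 fold change 0.45, edgeR adjusted p = 0.00218) and 3 fell, with Adam17 (-0.30, adjusted p = 0.0133) and Aph1b (-0.27, adjusted p = 0.0135) the furthest. The groups overlapped for Adam17. The called share of the 10 genes was 40%, beside 45.8% of all genes.

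Ubiquitin ligases and endocytic adaptors govern how ligands pull on receptors and how receptors are removed. Of 21 such genes, 3 were higher and 9 lower with PTH, with a median log2 fold change of -0.17. Their called share was 57.1%, beside 45.8% of all genes. Neurl1b, a ligase that acts on Notch ligands, fell from 2.39 ± 0.203 to 0.909 ± 0.247 CPM (-1.39, edgeR adjusted p = 7.46e-04), and Epn2, an epsin of endocytosis, fell from 41.9 ± 1.70 to 19.8 ± 1.07 CPM (-1.08, adjusted p = 1.17e-07). Fbxw7, whose product marks cleaved Notch for degradation, rose (log2 fold change 0.47, edgeR adjusted p = 0.00455), as did Dtx3 (0.42, adjusted p = 0.0227), for which the groups overlapped.

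In the nucleus, Rbpj itself fell from 96.8 ± 5.95 to 74.4 ± 3.56 CPM (edgeR log2 fold change -0.38, standard error 0.0655, edgeR adjusted p = 5.31e-04), with no overlap between groups. It was 1 of 5 genes that fell among 13 for RBPJ, Mastermind and their co-activators. The others include Maml2 (-0.62, adjusted p = 3.90e-05), a Mastermind gene, and Snw1 (-0.45, adjusted p = 0.00116), while the acetyltransferase gene Ep300 was the one that rose (0.24, adjusted p = 0.011). Of 18 co-repressor genes, 3 rose and 5 fell. The called share was 46.2% of the 13 genes and 44.4% of the 18, beside 45.8% of all genes. Tle3, a Groucho-type co-repressor that HES proteins recruit, rose from 64.1 ± 3.90 to 146 ± 5.49 CPM (edgeR log2 fold change 1.18, adjusted p = 2.77e-08). L3mbtl3, a partner of RBPJ, fell from 62.5 ± 6.08 to 34.5 ± 2.95 CPM (-0.86, adjusted p = 8.30e-06), and Sin3a fell from 50.6 ± 1.72 to 29.3 ± 1.57 CPM (-0.79, adjusted p = 1.21e-06).

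Other genes known as Notch targets in some tissue, or related to the HES family, went both ways. Of 21 such genes 14 were tested, and 78.6% of these were called, beside 45.8% of all genes. There were 7 higher and 4 lower, with a median log2 fold change of 0.49. The 7 include Bhlhe40, a repressor related to HES proteins, which rose from 27.9 ± 4.12 to 266 ± 29.1 CPM (log2 fold change 3.25, edgeR adjusted p = 5.69e-10), and Snai1, which rose from 64.2 ± 3.13 to 289 ± 36.7 CPM (2.17, adjusted p = 2.74e-09). Its relative Snai2 fell from 64.9 ± 2.76 to 11.9 ± 1.25 CPM (-2.45, adjusted p = 4.31e-10), and Pdgfrb, a growth factor receptor gene of mesenchymal cells, fell from 240 ± 23.9 to 106 ± 7.01 CPM (-1.18, adjusted p = 2.70e-07). Many of these genes also answer to signals other than Notch. Among further HES genes, Hes6 fell from 13.6 ± 1.66 to 6.40 ± 1.44 CPM (log2 fold change -1.08, edgeR adjusted p = 1.44e-04), and Hes7 had 0 to 28 counts with vehicle and 5 to 29 with PTH (0.74, adjusted p = 0.471). Hes2, Hes3 and Hes5 were at 0 in every vehicle culture and had at most 3 counts in a PTH culture. Nrarp, a feedback inhibitor of Notch that was singled out after its values were seen, had 6 to 8 counts per vehicle culture and 0 to 2 per PTH culture, too few to be tested.

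**Figure D5:**
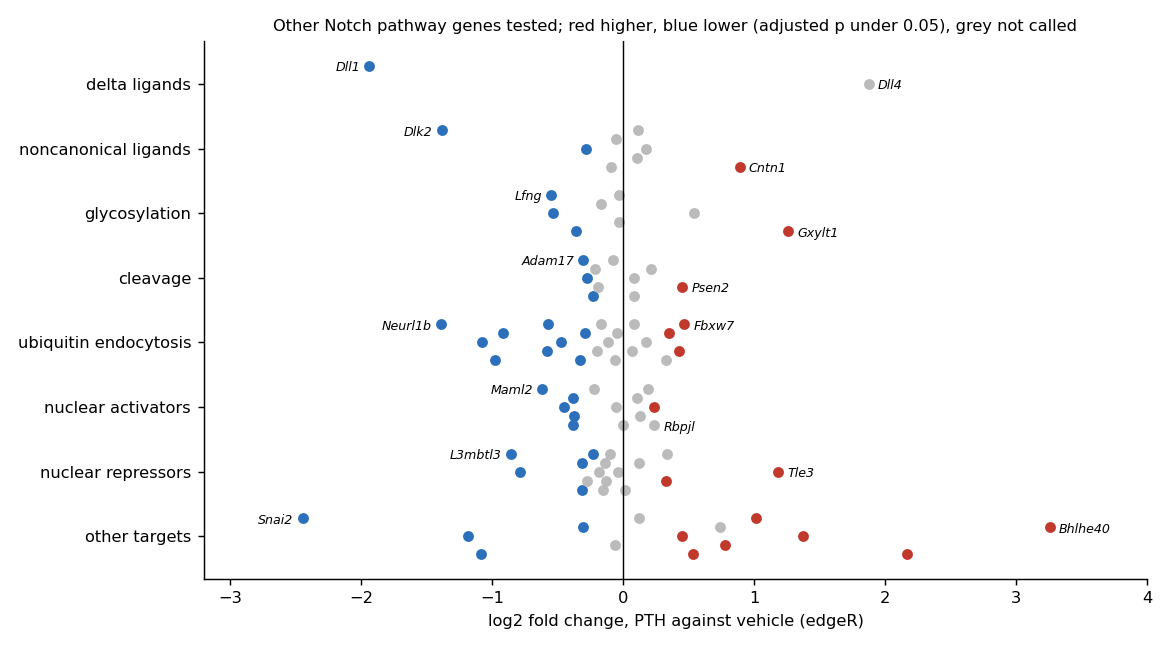
Log2 fold change with PTH (horizontal axis) of 93 other Notch pathway genes tested, one point per gene, in rows by role, with the outermost gene on either side named. Red points are higher and blue points lower at an adjusted p under 0.05, and 16 are red and 32 blue.

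Notch genes are also active in cells that could be present in a calvarial culture. Of 14 endothelial markers 9 were tested, 3 were higher and 2 lower, and their summed level was 27.1 to 29.2 CPM with vehicle and 36.0 to 57.1 with PTH. The main part of that sum was Erg, which rose from 16.8 ± 0.648 to 33.5 ± 9.17 CPM. Kdr (0.692 ± 0.403 to 1.98 ± 0.675 CPM) and Flt1 (2.85 ± 0.935 to 5.48 ± 0.568 CPM) also rose, though the groups overlapped for Kdr. Tek (4.87 ± 0.562 to 3.46 ± 0.436 CPM) and Sox18 (1.23 ± 0.481 to 0.462 ± 0.105 CPM) fell. Emcn and Sox17 were at 0 in all 8 cultures, and Pecam1 and Cdh5 stayed at means under 1 CPM. Of 8 mural cell markers 7 were tested and 1, Mcam, was higher (4.21 ± 0.752 to 23.2 ± 3.53 CPM), while 6 were not called. The median log2 fold change of the 7 was -0.05. The summed level, which includes Mcam, was 78.2 to 85.5 CPM with vehicle and 89.9 to 96.5 CPM with PTH. Of 10 macrophage markers 2 were higher, Lyz2, for which the groups overlapped, and Tyrobp. The sums were 1060 to 1727 CPM with vehicle and 1654 to 2146 CPM with PTH. The main part of them was Lyz2, at 914 ± 187 CPM with vehicle and 1417 ± 203 CPM with PTH. Of 12 osteoblast markers 3 were lower, namely Runx2, Sp7 and Dmp1. Among 5 osteoclast, 7 chondrocyte, 7 adipocyte and 3 muscle progenitor markers tested, 0, 2, 0 and 1 were higher and 0, 0, 1 and 0 were lower, in that order. The called share was 55.6% of the endothelial, 14.3% of the mural, 20% of the macrophage and 25% of the osteoblast markers tested. That of all genes was 45.8%. The part of these cells in the changes of the Notch genes was not tested.

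The genes most like 4 of the members were found by the correlation of log2 CPM over the 8 cultures, taken over the 14069 symbols whose mean reached 1 CPM. For Jag1 they were Zmat1 (r = 0.999), Fam214a (0.998) and Dzip1l (0.995), and 774 genes in all had an r over 0.95. For Hes1 they were Smek1 (0.996), Slc10a6 (0.994) and Mef2d (0.990), with 566 genes over 0.95. Hey1 was most like Il21r (0.986), Gm13502 (0.984) and Tnfrsf1b (0.983), with 150 such genes. Notch1 had only 10, led by Aoc2 (0.976), Dgka (0.971) and S100a1 (0.963). The 8 cultures share the split by treatment, which alone gives a high r between genes with a large response, and these values are a description.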

How the data were processed

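RNA was measured in 4 PTH-treated and 4 vehicle-treated osteoblast cultures, grouped by their labels. The authors made poly(A) libraries, read them as pairs of 150 bases, used HISAT2 for alignment to GRCm38 and StringTie2 for assembly, and deposited whole-number counts per gene without normalization, which StringTie2's companion script derives from transcript coverage. The annotation, the strand setting and the read length given to that script, which scales all counts, are not given in the sources used here. The study itself used DESeq2 with an adjusted p under 0.05 and no minimum fold change, and that threshold was kept.

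Counts were filtered with filterByExpr (minimum count 10, minimum total 15), normalized by TMM and tested with the two-sided quasi-likelihood F-test of edgeR 4.0.16 in R 4.3.3, with Benjamini-Hochberg adjustment over all 16736 genes tested. Rows without a symbol held 0.00281% of the counts. CPM use TMM-normalized library sizes. Single values were compared by exact permutation in Python 3.11.15 on log2(CPM + 0.1). Positions and exon lengths are those of GENCODE M21 (GRCm38), and promoters those of RefSeq. The fit was tested on simulated counts for the 16736 genes of PTH against vehicle, with 200 genes changed. Of these, 78 of 101 genes changed 2-fold and 69 of 99 changed 1.5-fold were recovered, with 3 false calls. In the data 45.8% of genes were called, a far larger share than was simulated. The simulation therefore does not show how the fit performs at that share.

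The members and the gene lists were chosen with earlier results of these data known. Named are the members, the 2 called genes with the largest increase and decrease of each pathway list, each Delta-type ligand and HES gene, Rbpj, Tnfsf11 and the 3 genes most like Jag1, Notch1, Hes1 and Hey1. Alternatives were DESeq2 1.42.0, other scalings, no filter, counts halved or summed by symbol, the replicate number as a block and each culture left out in turn. Offsets for transcript length and GC content were added after the data were seen. The result of 1 gene is not reported here and its point is left out of the plot of pathway genes. Sequence reads and protein sequences were not analysed here.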

Additional observations from a re-analysis of the deposited data

How the results depend on the processing

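The 4 members higher and the 4 lower with PTH kept their direction and their call in all 17 alternative analyses, and Notch4 and Heyl were called in none. With the replicate number as a block, 4 members were higher and 4 lower, and 3571 of all genes were higher and 3432 lower. Cultures of the same number did not deviate together (correlations of -0.041 to 0.027 across genes, and 0 of 4 PTH cultures closest to the vehicle culture of its own number), so the number was not taken as a pairing. Over the fits that each omit 1 culture, the log2 fold change ranged from 0.35 to 0.49 for Notch1, from -0.41 to -0.33 for Notch2, from -0.41 to -0.34 for Notch3, from 1.0 to 1.55 for Jag2 (edgeR adjusted p up to 0.0370), from 0.50 to 0.60 for Hes1, from 1.19 to 1.46 for Hey1 and from -3.52 to -2.94 for Hey2. Notch4 ranged from -1.16 to -0.19, the latter without PTH replicate 1, and Heyl from 0.07 without PTH replicate 1 to 0.25. Upper quartile scaling moved the median of all genes to -0.11 and the split of calls to 3054 higher and 5216 lower, so that 36.9% of calls were higher against 50.9% with TMM. Under that scaling Notch1 had a log2 fold change of 0.28 (edgeR adjusted p = 0.0385), and 14 of the other pathway genes were higher and 44 lower. Levels per kilobase with the longest transcript in place of all exons moved by more than the spread between cultures in 10 of 20 cases. Counts were low for Notch4, Hey2, Dll1 and Dll4, at under 100 in each culture.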
